A study of Homo sapiens with 18 samples.

Results

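The interferon response genes described here are 49 protein-coding genes whose transcripts are known to increase when cells sense interferon, and they were taken by symbol from the deposited gene table. All 49 had a row among its 46218 gene IDs. The table comes from RNA sequencing of 3 established human glioblastoma lines, U118-MG, T98G and LN229, each carrying a CRISPR guide against DDA1 (sgDDA1) or a control guide (sgCon), with 3 libraries in each of the 6 groups. DDA1 is a small subunit of the CRL4 ubiquitin ligases, and the series title links its phosphorylation by mTORC1 to DNA repair. The medium of all groups was DMEM plus fetal bovine serum, and the labels name no interferon treatment. They do not say whether the guided cells were pools or clones. They also leave unsaid if replicate libraries stem from different cultures, and the p-values then cover a spread that may be only technical.

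In the interferon pathway, type I interferons bind the receptor IFNAR1 and IFNAR2, the kinases JAK1 and TYK2 are activated, and STAT2 and IRF9 enter the factor ISGF3. ISGF3 binds the interferon-stimulated response element (ISRE) in target promoters, whereas interferon gamma acts at the gamma-activated site (GAS) and through IRF1. The targets block viruses at several steps: IFITM proteins and BST2 act at membranes, IFIT and OAS proteins recognise viral RNA, MX proteins trap viral components, and ISG15 is a ubiquitin-like modifier. The 49 genes were grouped here by these roles into transcription factors, sensors, the OAS and IFIT families, membrane restriction, the ISG15 system, GTPases, restriction of nucleotides and RNA, PARP and nuclear body proteins, chemokines, and other induced genes.

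Promoter sequences were read for the members that had one, and some that hold an ISRE core are printed to show the elements near their start sites. RefSeq promoters on GRCh38.p14, running from 250 bases before to 50 bases after the start, were found for 39 of the 49 genes. The ISRE core was searched as GAAA, 2 bases of any kind and GAAA, and the GAS core as TTCNNNGAA, each on both strands, and matches of either motif may overlap others. The ISRE core was present in 25 of the 39 promoters (64.1%), against 3.65% of all 27305 promoters, and the GAS core in 11 of 39 (28.2%), against 7.88%. IFITM1 (chr11:313790-314089, plus strand), IFIT1 (chr10:89392373-89392672, plus strand), BST2 (chr19:17405581-17405880, minus strand), IFIT3 (chr10:89327747-89328046, plus strand) and CXCL10 (chr4:76023448-76023747, minus strand) are printed 5′ to 3′ with ISRE cores in capitals. The capitals read as TTTC blocks where the core lies on the opposite strand.
IFITM1: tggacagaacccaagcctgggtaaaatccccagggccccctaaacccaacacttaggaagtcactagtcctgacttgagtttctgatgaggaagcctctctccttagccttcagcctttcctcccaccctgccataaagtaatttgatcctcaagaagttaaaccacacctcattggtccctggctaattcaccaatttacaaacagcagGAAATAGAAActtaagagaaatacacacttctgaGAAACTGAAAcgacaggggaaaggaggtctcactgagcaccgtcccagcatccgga
IFIT1: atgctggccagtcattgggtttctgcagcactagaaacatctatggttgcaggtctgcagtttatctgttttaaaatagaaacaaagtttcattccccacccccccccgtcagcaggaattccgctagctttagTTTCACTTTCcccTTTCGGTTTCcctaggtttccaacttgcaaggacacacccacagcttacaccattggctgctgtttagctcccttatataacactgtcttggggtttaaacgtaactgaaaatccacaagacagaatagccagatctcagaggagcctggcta
BST2: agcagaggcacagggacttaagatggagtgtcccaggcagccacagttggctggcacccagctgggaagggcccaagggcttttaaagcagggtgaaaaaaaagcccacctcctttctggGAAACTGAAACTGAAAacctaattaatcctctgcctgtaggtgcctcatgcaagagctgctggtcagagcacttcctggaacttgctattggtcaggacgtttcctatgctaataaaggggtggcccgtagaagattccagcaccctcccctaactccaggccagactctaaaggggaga
IFIT3: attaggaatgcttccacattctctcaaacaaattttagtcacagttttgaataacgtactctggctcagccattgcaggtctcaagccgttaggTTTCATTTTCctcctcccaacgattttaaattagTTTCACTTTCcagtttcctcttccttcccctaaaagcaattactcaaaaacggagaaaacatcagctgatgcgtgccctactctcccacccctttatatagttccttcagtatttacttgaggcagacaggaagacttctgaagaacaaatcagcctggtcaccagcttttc
CXCL10: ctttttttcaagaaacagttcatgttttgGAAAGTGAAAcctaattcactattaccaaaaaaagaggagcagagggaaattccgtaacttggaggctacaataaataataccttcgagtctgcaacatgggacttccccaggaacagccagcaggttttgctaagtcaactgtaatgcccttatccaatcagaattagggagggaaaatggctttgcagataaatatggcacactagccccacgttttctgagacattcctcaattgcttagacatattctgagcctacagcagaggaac
IFITM1 also held a GAS core, BST2 held 2 and the other 3 promoters held none. Some members with large changes below had no match to this ISRE core, with its 2 free bases, in this window. Among them were CXCL11 (2 GAS cores), IRF1 and OAS1 (1 GAS core each) and RSAD2 (0 GAS cores). The OAS1 and RSAD2 windows do hold GAAA blocks with 1 base between them, a spacing that this search did not count. A missing match is therefore not read as a missing element. A match describes the letters only.

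Library totals were 44.9 to 55.1 M counts, and 94.1 M in LN229 sgCon 1. The 3 libraries labelled U118-MG sgCon did not resemble the U118-MG sgDDA1 libraries: described across genes, which are not independent, their log2 CPM had a Pearson correlation of 0.806 to 0.825 with U118-MG sgDDA1 and 0.952 to 0.976 with LN229 sgDDA1. The U118-MG pair is therefore given only as labelled, and no guide response is read from it. DDA1 was at 57.3 ± 2.20 CPM in T98G sgDDA1 and 65.6 ± 3.68 CPM in T98G sgCon (log2 fold change -0.20, SE 0.05, adjusted p = 0.00106), and at 33.7 ± 1.40 CPM in LN229 sgDDA1 and 48.6 ± 0.829 CPM in LN229 sgCon (-0.53, SE 0.05, adjusted p = 2.82e-11). In U118-MG it was at 63.0 ± 3.72 CPM with sgDDA1 and 59.3 ± 11.2 CPM in the labelled sgCon, so its mean was not lower in the U118-MG sgDDA1 libraries. CPM are read counts relative to the TMM-scaled library total, given as mean ± SD of 3 libraries. The 8 leukocyte markers summed to 3.60 to 7.91 CPM in any library, with PTPRC at 0 in the U118-MG sgCon libraries and CD3E at 0 in T98G. Of the 9 glial and glioma markers, only VIM, NES, SOX9 and CD44 averaged 1 CPM or more in U118-MG sgDDA1 and both T98G groups. SOX2, GFAP, OLIG2 and AQP4 averaged under 1 CPM there, and S100B was at 0 in T98G. In LN229, 7 markers averaged 1 CPM or more with sgDDA1 and 6 with sgCon, SOX2 and OLIG2 among them in both groups. VIM averaged 2384 CPM in U118-MG sgDDA1 and 622 CPM in T98G sgDDA1, and under 100 CPM in both LN229 groups. In T98G the guide groups also differed in VIM (622 ± 7.44 CPM in sgDDA1, 885 ± 22.5 CPM in sgCon), and in LN229 in the epithelial keratin KRT8 (94.4 ± 2.45 CPM in sgDDA1, 43.6 ± 1.76 CPM in sgCon). Their part in the results on interferon genes was not tested.

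The 3 lines held these genes at very different levels. The median member averaged 18.6 CPM in U118-MG sgDDA1, 268 CPM in T98G sgDDA1, 208 CPM in T98G sgCon, 5.51 CPM in LN229 sgDDA1 and 3.44 CPM in LN229 sgCon. At 100 CPM or more were 36 members in T98G sgDDA1 and 35 in T98G sgCon, 8 in U118-MG sgDDA1 and 4 in each LN229 group. The 49 genes together took 18967 to 19866 CPM in T98G sgDDA1 libraries and 13943 to 14598 CPM in T98G sgCon libraries. In LN229 they took 1244 to 1331 CPM with sgDDA1 and 1198 to 1248 CPM with sgCon, ranges that overlap. CXCL9, a chemokine, had 0 to 8 counts in every library and was under the low-count filter, which left 48 tested members.

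**Figure D1:**
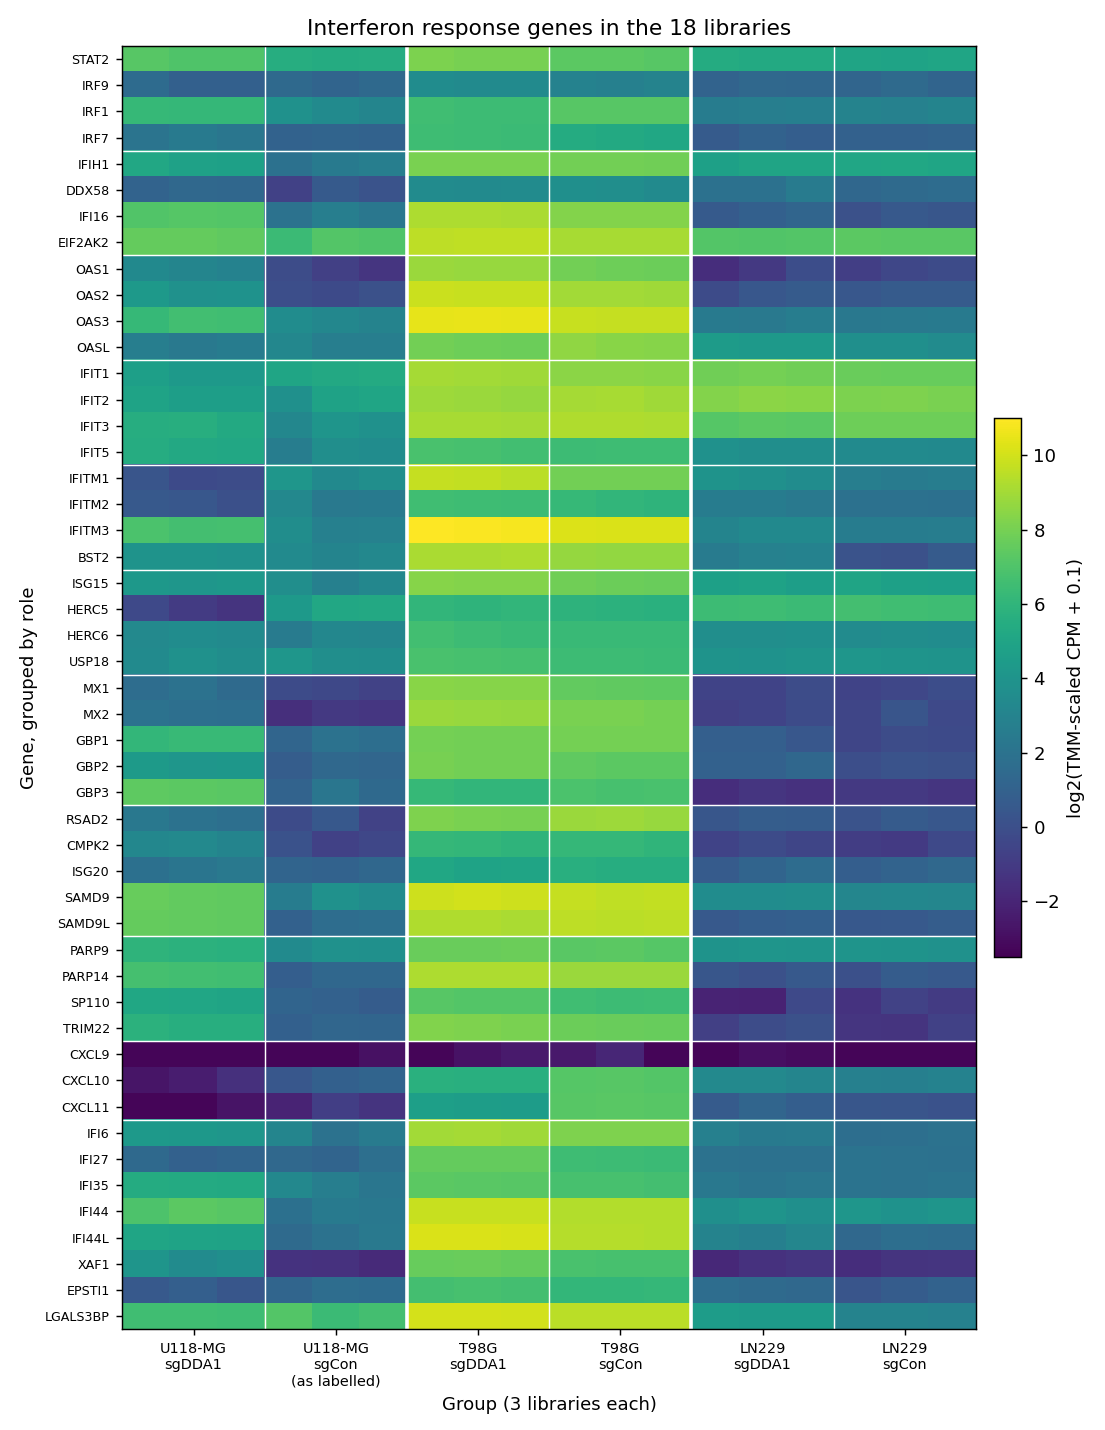
Level of each of the 49 interferon response genes in each of the 18 libraries, as log2 of TMM-scaled CPM plus 0.1, with genes in rows grouped by role and 3 libraries per group in columns. T98G columns are brightest in nearly every row, HERC5, IFIT1, IFIT2 and IFIT3 stay bright in LN229, and CXCL9 is dark throughout.

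Ranked per length, the leading transcripts differed between the lines. In T98G sgDDA1 the highest FPKM belonged to IFITM3 (623), IFI6 (504), BST2 (485), IFITM1 (447), IFI44 (403) and ISG15 (340.4). In T98G sgCon IFITM3 (391.9) again led, followed by BST2 (353), IFI6 (302), IFI44 (300.1), ISG15 (240.4) and LGALS3BP (203). LN229 showed another order, led in sgDDA1 by IFIT2 (89.7), IFIT1 (58.9), ISG15 (35.3) and IFIT3 (34.5). In U118-MG sgDDA1 the order was IFI44 (58.5), IFITM3 (31.7), GBP3 (31.2), LGALS3BP (22.4), SAMD9 (22.2) and IFI16 (21.6). These are mean FPKM of 3 libraries, the deposited unit that divides by gene length.

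The first comparison asked what the DDA1 guide did to the interferon genes in T98G. Most members were higher with sgDDA1, while both tested chemokines, the transcription factor IRF1, and OASL, GBP3, IFIT2, IFIT3, RSAD2, SAMD9L and ISG20 were lower. Of 48 tested members 35 rose, against 20.4% of the 24351 genes tested, and 10 fell, against 20.6% (edgeR, adjusted p under 0.05). The median log2 fold change was 0.49 over the members and 0.00 over all genes tested. Most shifts were modest, since 3 members rose and 2 fell by 2-fold or more, against 4.19% and 3.88% of all genes. In bulk RNA fewer cells with a transcript and less of it per cell cannot be told apart. DDX58, GBP1 and CMPK2 were not called.

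IFITM1, which holds viruses at the plasma membrane, had the largest rise. Its level was 844, 822 and 737 CPM in sgDDA1 libraries, against 239.6, 244.4 and 239.8 CPM in sgCon libraries. The groups stood far apart, and IFITM1 rose by 1.73 on the log2 scale (SE 0.05, adjusted p = 1.19e-25). All 4 membrane restriction genes rose, IFITM3 by 0.71 (1905 ± 86.4 CPM in sgDDA1, 1163 ± 32.2 CPM in sgCon), BST2 by 0.50 and IFITM2 by 0.44. IFITM2 overlaps IFITM1 in GENCODE 29 and the IFITM sequences are alike, so how reads were split between them is uncertain.

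Among the transcription factors, IRF7, which amplifies interferon production, was at 90.5, 88.4 and 82.9 CPM in sgDDA1 libraries, against 42.0, 40.0 and 35.6 CPM in sgCon libraries. Every sgDDA1 value lay above every sgCon value, and the log2 fold change was 1.15 (SE 0.06, adjusted p = 2.56e-18). STAT2 and IRF9, subunits of ISGF3, both rose, STAT2 by 0.77 (269 ± 9.19 CPM in sgDDA1, 158 ± 4.35 CPM in sgCon) and IRF9 by 0.58 (11.1 ± 0.619 CPM in sgDDA1, 7.44 ± 0.464 CPM in sgCon). IRF1, a factor of the interferon gamma response, went the other way. It was at 94.7, 87.1 and 87.6 CPM in sgDDA1 libraries, against 150.6, 150.8 and 147.6 CPM in sgCon libraries, and fell by 0.74 on the log2 scale (SE 0.04, adjusted p = 1.08e-16).

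The OAS family, which makes the oligoadenylate signal that activates RNase L, split in T98G. OAS1 was at 443, 434 and 427 CPM in sgDDA1 libraries, against 239.6, 222 and 214 CPM in sgCon libraries. It rose by 0.95 (SE 0.05, adjusted p = 3.14e-17), beside its neighbours OAS2 (0.84) and OAS3 (0.76). OASL, which lies apart from that cluster on chromosome 12 and lacks the synthase activity, was at 239.4, 221 and 215 CPM in sgDDA1 libraries, against 389, 346 and 324 CPM in sgCon libraries. Its groups did not overlap and it fell by 0.65 (SE 0.05, adjusted p = 1.62e-13).

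The 4 IFIT genes, which bind viral RNA, stand in one row on chromosome 10 and split as well. IFIT1 rose by 0.52 (506 ± 22.4 CPM in sgDDA1, 353 ± 13.1 CPM in sgCon) and IFIT5 by 0.29. IFIT2 fell by 0.22 (448 ± 24.9 CPM in sgDDA1, 523 ± 25.2 CPM in sgCon) and IFIT3 fell by 0.17 (541 ± 18.7 CPM in sgDDA1, 608 ± 20.7 CPM in sgCon). The falls of IFIT2 and IFIT3 and the rise of IFIT5 were not called in a fit over all 18 libraries. SAMD9 and its paralogue SAMD9L, restriction factors side by side on chromosome 7, also differed, at 0.27 and -0.29, and neither was called in that fit over 18 libraries.

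Among the GTPases MX1, the myxovirus resistance protein, was at 347, 336 and 325 CPM in sgDDA1 libraries, against 179.9, 175 and 169.7 CPM in sgCon libraries. It rose by 0.94 (SE 0.04, adjusted p = 4.23e-20) and MX2 by 0.73. Of the guanylate-binding proteins, which attack vacuoles of intracellular pathogens, GBP2 rose by 0.57, GBP1 stood at -0.05 without passing the test, and GBP3 fell by 0.73 (68.8 ± 4.40 CPM in sgDDA1, 114.5 ± 2.72 CPM in sgCon). RSAD2, or viperin, which makes a chain-terminating nucleotide, was at 293, 272 and 259 CPM in sgDDA1 libraries, against 456, 469.5 and 433.5 CPM in sgCon libraries. It fell by 0.72 (SE 0.04, adjusted p = 2.67e-16), and its overlapping neighbour CMPK2 stood at -0.03 without passing. The RNase ISG20 fell by 0.54 (32.5 ± 2.70 CPM in sgDDA1, 47.3 ± 2.51 CPM in sgCon).

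The chemokines, which draw T cells through the receptor CXCR3, fell most. CXCL11 was at 25.7, 24.1 and 22.6 CPM in sgDDA1 libraries, against 153, 159 and 152 CPM in sgCon libraries. CXCL10 was at 52.2, 49.2 and 49.5 CPM in sgDDA1 libraries, against 145, 149 and 140.4 CPM in sgCon libraries. Neither gene's groups came near each other, with falls of 2.68 (SE 0.06, adjusted p = 1.12e-29) and 1.53 (SE 0.05, adjusted p = 3.67e-24) on the log2 scale.

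In the other groups every called member rose in T98G, and the sensor DDX58 (10.9 ± 0.253 CPM in sgDDA1, 12.1 ± 1.20 CPM in sgCon) was not called. All 4 genes of the ISG15 system rose, with ISG15 at 0.54 (317 ± 6.00 CPM in sgDDA1, 218 ± 12.6 CPM in sgCon), USP18, which removes ISG15, at 0.33, the ISG15 ligase HERC5 at 0.21 and HERC6 at 0.13. HERC6 was not called by DESeq2 (33 members higher in all), with RLE scaling (34) or without any of 5 single T98G libraries, and the HERC5 call was lost in the fit over 18 libraries. The PARP and nuclear body proteins SP110 (0.66), TRIM22 (0.48), PARP9 (0.44) and PARP14 (0.39) rose, SP110 not by DESeq2. Of the sensors, IFI16, a DNA sensor, rose by 0.89 (586 ± 5.80 CPM in sgDDA1, 317 ± 2.29 CPM in sgCon), the kinase PKR (EIF2AK2) by 0.51 and MDA5 (IFIH1) by 0.18, the last not called in the fit over 18 libraries. All 8 other induced genes rose, from 0.47 for IFI44 to 1.14 for IFI27 (189.7 ± 1.54 CPM in sgDDA1, 85.9 ± 2.81 CPM in sgCon). In that fit over 18 libraries 30 members were higher and 7 lower.

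**Figure D2:**
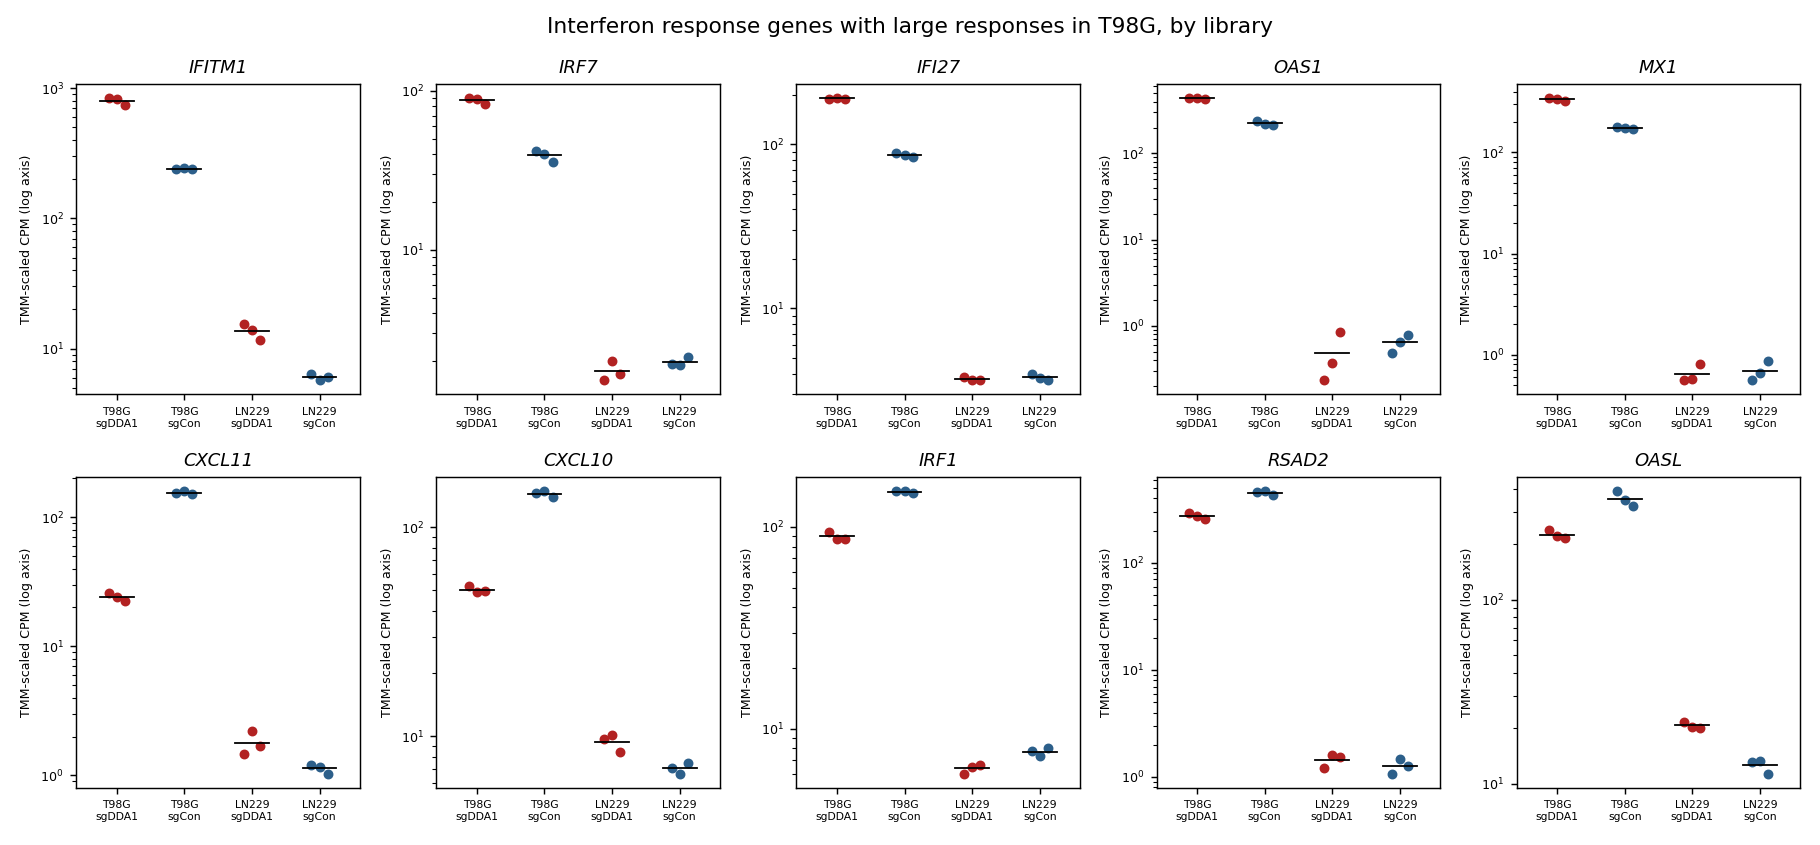
TMM-scaled CPM (log axis) of 10 interferon response genes in each T98G and LN229 library, red for sgDDA1 and blue for sgCon, with black lines at group means. In T98G the top row is higher and the bottom row lower in every sgDDA1 library than in any sgCon library, and in LN229 CXCL10, CXCL11 and OASL are higher with sgDDA1.

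The next comparison asked the same in LN229, where most of these genes were low. Of 48 tested members 21 rose, against 27.5% of all genes tested, and 6 fell, against 20.5%, so the share that fell was below the background. The median log2 fold change was 0.20 over the members and 0.07 over all genes. Rises of 2-fold or more were found in 7 members, against 10.1% of all genes, and falls of that size in none, against 1.36% (edgeR), since the lowest log2 fold change of a member was -0.54 at any p. In the fit over 18 libraries 18 rose and 1 fell.

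BST2, or tetherin, had the largest rise in LN229. It was at 5.61, 7.21 and 7.62 CPM in sgDDA1 libraries, against 1.05, 0.978 and 1.51 CPM in sgCon libraries. The groups were well apart (log2 fold change 2.56, SE 0.11, adjusted p = 4.35e-20), and the level stayed far under the 575 CPM of T98G sgDDA1. BST2 and DDA1, the guide's target, lie 79637 bases apart on chromosome 19. Of 27 other tested genes within 200000 bases of DDA1, BST2 included, 10 rose and 6 fell in LN229, against 27.5% and 20.5% of all genes. In T98G 11 of these 27 rose and 1 fell, against 20.4% and 20.6% of all genes. Whether position has a part in the BST2 value was not tested.

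LGALS3BP, a secreted galectin ligand, was at 22.8, 20.6 and 20.8 CPM in LN229 sgDDA1 libraries, against 7.79, 7.93 and 7.18 CPM in sgCon libraries. It rose by 1.48 (SE 0.05, adjusted p = 9.43e-23), with no overlap. IFI44L rose by 1.47 (7.87 ± 1.05 CPM in sgDDA1, 2.90 ± 0.349 CPM in sgCon), while its neighbour IFI44 stood at -0.20 with overlapping libraries. IFITM1 rose in LN229 as well, by 1.16 (13.7 ± 1.94 CPM in sgDDA1, 6.05 ± 0.338 CPM in sgCon). GBP1 and GBP2 rose by 1.17 and 1.11, at levels of at most 2.46 CPM in any LN229 library. All 4 membrane restriction genes and both chemokines rose in LN229, whereas none of the ISG15 system rose.

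The largest fall in LN229 was that of IFIT3. It was at 144, 161 and 154 CPM in sgDDA1 libraries, against 226, 223 and 219 CPM in sgCon libraries. It fell by 0.54 (SE 0.04, adjusted p = 5.78e-14), and it was the only fall that stayed called in the fit over 18 libraries. IFIT1 and IFIT2, on either side of it, rose by 0.26 each, IFIT2 not in that fit. IRF1 (-0.27), IFIH1 (-0.20), EIF2AK2 (-0.20), IFI44 (-0.20) and HERC5 (-0.13) made up the other 5 falls. Without LN229 sgCon 1, the deeper library, HERC5 and IFI44 were not called, and HERC5 was not called without LN229 sgDDA1 3.

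**Figure D3:**
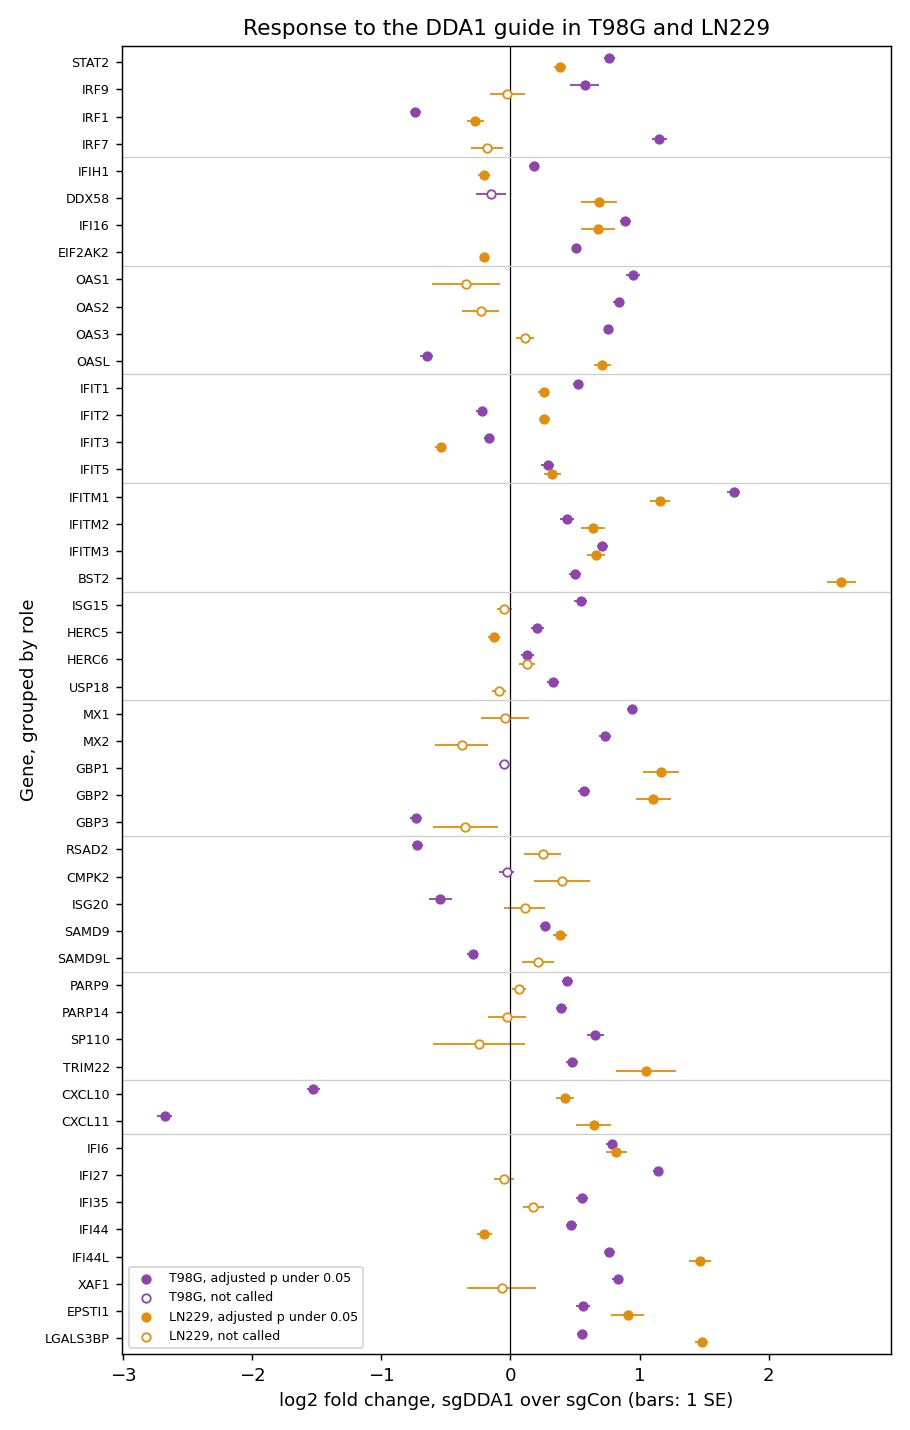
log2 fold change of sgDDA1 over sgCon with 1 SE for the 48 tested interferon response genes in T98G (purple) and LN229 (orange), filled where the edgeR adjusted p was under 0.05. T98G has 35 filled points right of 0 and 10 left of it, led by CXCL11 at -2.68, and LN229 has 21 and 6, led by BST2 at 2.56.

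Set side by side, 15 members rose in both lines, among them the IFITM genes, IFIT1, IFIT5, STAT2 and IFI6. IRF1 and IFIT3 fell in both. CXCL10, CXCL11, IFIT2 and OASL fell in T98G and rose in LN229, whereas IFI44, EIF2AK2, IFIH1 and HERC5 rose in T98G and fell in LN229. Those LN229 falls were not called in the fit over 18 libraries. Nor were the T98G rises of IFIH1 and HERC5, or the changes of IFIT2 in either line. A further 16 rose in T98G without a call in LN229, among them OAS1, OAS2, OAS3, MX1, MX2, ISG15 and IRF7. The difference between responses was tested as T98G minus LN229. It passed for 38 of 48 members, against 37.1% of all genes, higher in T98G for 23, against 17.3% of all genes, and lower for 15, against 19.7%. In the fit over 18 libraries 12 were higher and 8 lower.

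The differences of response were largest for CXCL11 (-3.32, SE 0.15, adjusted p = 1.71e-19), BST2 (-2.06, SE 0.12), CXCL10 (-1.95, SE 0.08) and OASL (-1.36, SE 0.08) among those lower in T98G. Among those higher in T98G, IRF7 (1.33, SE 0.14) and OAS1 (1.29, SE 0.27, adjusted p = 0.000163) led. CXCL10 was at 9.75, 10.1 and 8.41 CPM in LN229 sgDDA1 libraries, against 7.02, 6.64 and 7.46 CPM in LN229 sgCon libraries, and rose by 0.42 (SE 0.07, adjusted p = 2.53e-06). OASL was at 20.7 ± 0.720 CPM in LN229 sgDDA1 and 12.6 ± 1.05 CPM in LN229 sgCon, a rise of 0.71. OAS1 in LN229 stayed under 1 CPM in all 6 libraries, so its response there was poorly measured (-0.34, SE 0.26). For IFITM3 the 2 responses differed by 0.05 (SE 0.08), which did not pass.

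The comparison of T98G with LN229, both with the control guide, showed where the lines started. Of 48 tested members 47 were higher in T98G, against 36.8% of all genes, and HERC5 alone was lower, against 38.3%. By 10-fold or more 35 were higher in T98G, against 8.04%. The median log2 difference was 5.44 over the members and -0.05 over all genes. TRIM22 was at 215, 209 and 199.5 CPM in T98G sgCon libraries, against 0.313, 0.301 and 0.517 CPM in LN229 sgCon libraries, the largest difference (9.15, SE 0.09, adjusted p = 1.44e-41). SAMD9L (9.05), XAF1 (8.66), PARP14 (8.54), OAS1 (8.53) and RSAD2 (8.53) followed.

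A few members differed less between the lines. IFIT1, IFIT2 and IFIT3 were higher in T98G by 0.83, 0.89 and 1.45. HERC5 was at 55.6 ± 2.86 CPM in T98G sgCon and 95.3 ± 5.21 CPM in LN229 sgCon (-0.78, SE 0.05, adjusted p = 2.40e-17). Of 19 tested ligand, receptor and signalling genes, 14 were higher in T98G, against 36.8% of all genes, and 5 lower, against 38.3%. The receptor gene IFNAR1 and the kinase gene JAK1 were higher in T98G by 0.70 and 0.74. The receptor gene IFNLR1 went the other way, at 0.591 ± 0.163 CPM in T98G sgCon and 14.3 ± 0.807 CPM in LN229 sgCon.

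Many of the low LN229 levels lay at a small fraction of the T98G level. With sgDDA1, 18 of the 49 members were under 1% of their T98G level, at a median of 0.290% and from 0.111% to 0.994%. With sgCon it was 21 members, at a median of 0.306%. CXCL9 at 0 is among these, though it averaged only 0.0777 CPM in T98G sgCon and was not tested. Of 2519 genes at 100 CPM or more in T98G sgDDA1, 3.22% were under 1% in LN229 sgDDA1, and the lowest was at 0.0711%. Of 2568 genes at that level in T98G sgCon, 3.66% were under 1% in LN229 sgCon. The members were counted at any T98G level, so the sets are unlike. GBP3 (68.8 CPM) and CMPK2 (66.3 CPM), for example, were under 100 CPM in T98G sgDDA1. Values this low touch the LN229 calls: 6 of the 21 rises (IFI44L, GBP1, GBP2, IFI16, IFITM3 and TRIM22) and none of the 6 falls were of members under 1% of T98G with sgDDA1. With sgCon the same 6, and also BST2 (0.290%) and CXCL11 (0.736%), were under 1%, so the rises of BST2 and CXCL11 are read against a control value in this range. Whether reads from T98G contribute to these LN229 values was not tested.

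**Figure D4:**
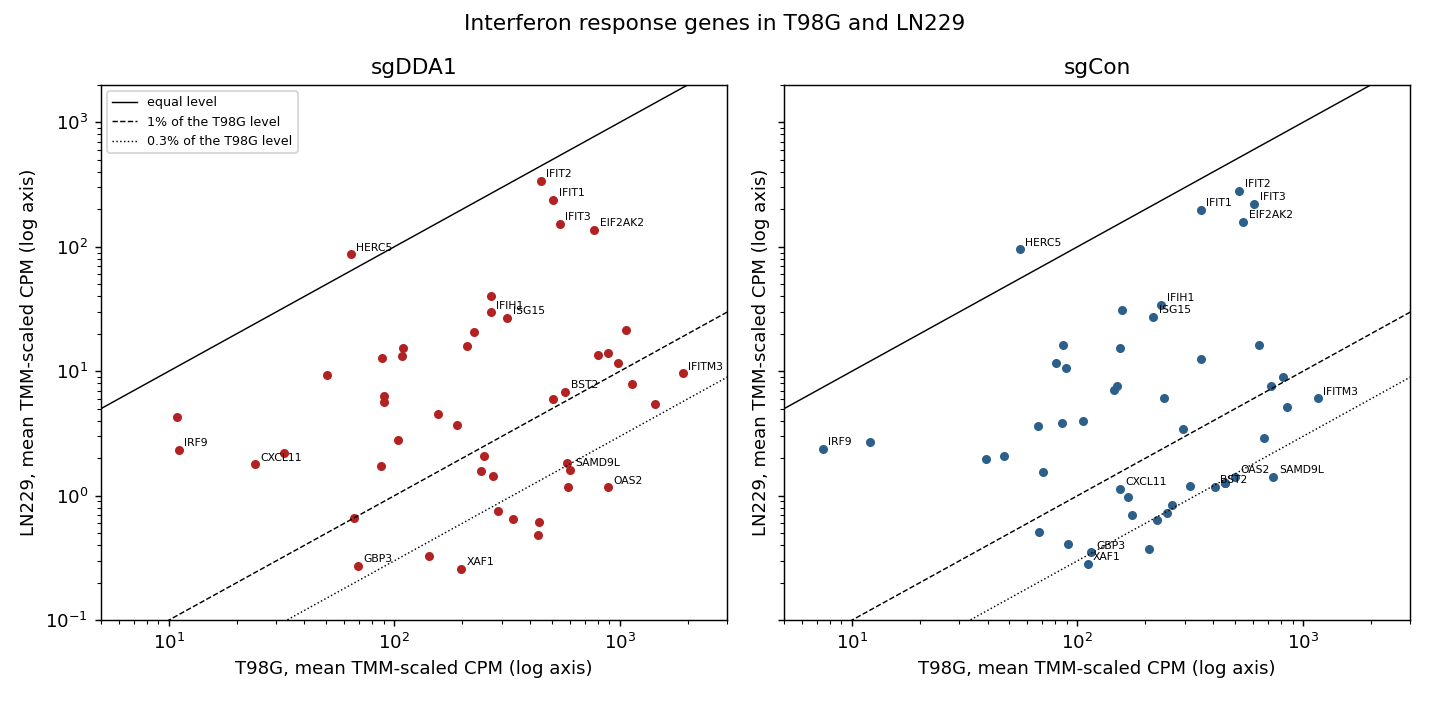
Mean TMM-scaled CPM of 48 interferon response genes in T98G (x, log axis) and LN229 (y, log axis), with sgDDA1 on the left and sgCon on the right; CXCL9, near 0, is left out. HERC5, IFIT1 and IFIT2 lie nearest the line of equal level, and a band of members lies near the dotted line at 0.3% of the T98G level.

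U118-MG sgDDA1 was set against the other lines with the same guide. Against T98G sgDDA1, 47 of 48 members were lower, against 32.7% of all genes, and only GBP3 was higher, against 32.3%. By 10-fold or more 26 were lower, against 5.52%. GBP3 was at 167, 161 and 159 CPM in U118-MG sgDDA1 libraries, against 68.8 ± 4.40 CPM in T98G sgDDA1, with no overlap (1.24, SE 0.05, adjusted p = 1.24e-13). Among the lower members, CXCL11 stood at 0 in 2 of the 3 U118-MG sgDDA1 libraries and at 0.0505 CPM in the other, below the 3-count floor of 0.0758 CPM in that library. IFITM1 was at 0.901 ± 0.227 CPM in U118-MG sgDDA1 and 801 ± 56.5 CPM in T98G sgDDA1 (-9.80, SE 0.13, adjusted p = 3.86e-21). IFITM3, on the same stretch of chromosome 11, was still at 109.5 ± 9.06 CPM in U118-MG sgDDA1.

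Against LN229 sgDDA1, U118-MG sgDDA1 was higher for 31 members, against 36.9% of all genes, and lower for 15, against 39.6%. By 10-fold or more 16 were higher, against 8.75%, and 6 lower, against 11.5%. The higher ones were led by GBP3 (9.19), SAMD9L (6.83), SP110 (6.68), PARP14 (6.38), IFI16 (6.25) and TRIM22 (6.07), and the lower ones by HERC5 (-7.54), CXCL11 (at 1.79 CPM in LN229 sgDDA1), CXCL10 (-6.07), IFITM1 (-3.93), IFIT2 (-3.69) and IFIT1 (-3.44). HERC5 was at 0.701, 0.405 and 0.303 CPM in U118-MG sgDDA1 libraries, against 86.7, 91.7 and 83.2 CPM in LN229 sgDDA1 libraries. Its neighbour HERC6 was lower by less (-0.25, not called in the fit over 18 libraries), at 10.7 ± 0.808 CPM in U118-MG sgDDA1 and 12.8 ± 0.476 CPM in LN229 sgDDA1.

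As labelled, U118-MG sgDDA1 against U118-MG sgCon gave 35 members higher, against 35.3% of all genes, and 8 lower, against 36.9%, with a median log2 difference of 2.04 over members and -0.05 over all genes. The largest were SAMD9L (6.06), XAF1 (5.76), GBP3 (5.73) and PARP14 (5.50). At the low end were HERC5 (-6.06), CXCL11 (-4.00, with means under 1 CPM in both groups), IFITM1 (-3.88) and CXCL10 (-3.64). In the labelled controls 22 members lay between the LN229 means and the U118-MG sgDDA1 mean, 10 within the LN229 means and 17 outside both. These places were not counted over all genes, so nothing particular to the interferon genes is read from them. Of 7 members at 20 CPM or more in U118-MG sgDDA1 and under 2 CPM in LN229, the mean of the labelled controls was highest for SP110, at 5.53% of the U118-MG sgDDA1 mean. HERC5 in the labelled controls was at 20.2, 35.9 and 37.8 CPM, and IFIT2 at 13.6, 29.4 and 32.9 CPM against 283 to 340 CPM as LN229 group means. OASL, called lower at -0.34, lost its call without the labelled U118-MG sgCon 1, without U118-MG sgDDA1 2 and in a fit of these 6 libraries alone.

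**Figure D5:**
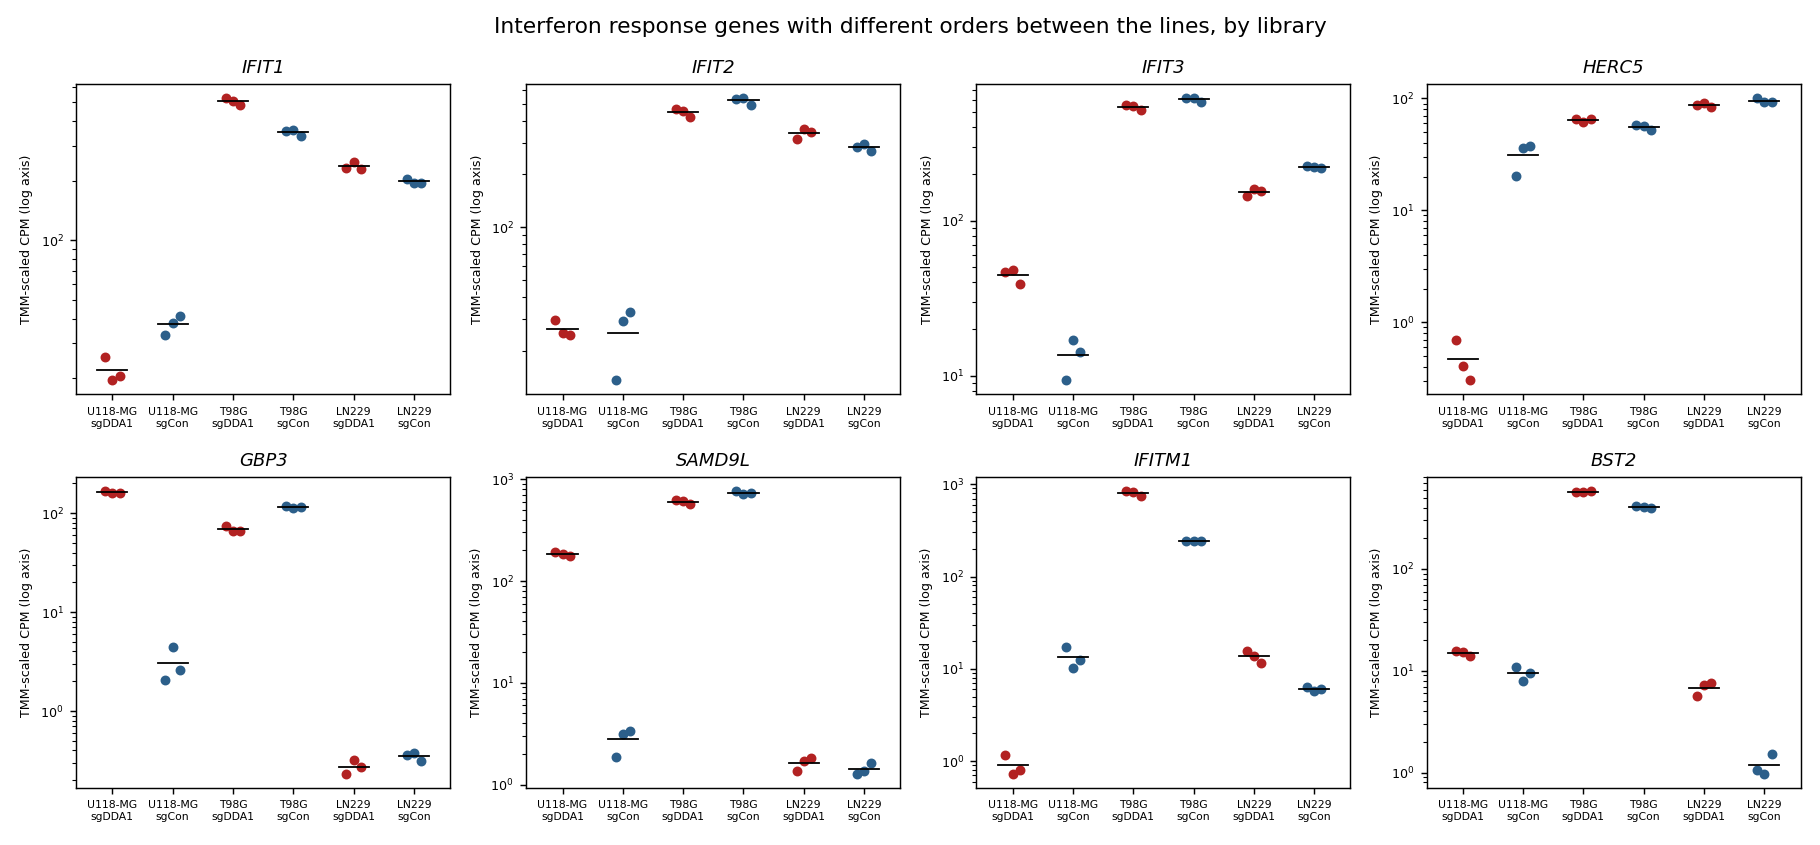
TMM-scaled CPM (log axis) of 8 interferon response genes in every library, with sgDDA1 in red, sgCon in blue and black lines at group means. HERC5 is below 1 CPM only in U118-MG sgDDA1, GBP3 is highest there, and the libraries labelled U118-MG sgCon fall apart from those of U118-MG sgDDA1 for GBP3, SAMD9L, IFITM1 and HERC5.

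Genes that act upstream were read from further lists. Of 23 ligand, receptor and signalling genes 19 were tested, and 5 rose, 5 fell and 9 were not called in T98G, and 3 rose, 2 fell and 14 were not called in LN229. Over all genes tested the shares were 20.4% higher and 20.6% lower in T98G, and 27.5% higher and 20.5% lower in LN229, so the T98G counts lie near those of all genes. IFNB1, the gene of interferon beta, was at 1.26 ± 0.161 CPM in T98G sgDDA1 and 0.770 ± 0.294 CPM in T98G sgCon (0.71, adjusted p = 0.0783). In LN229 it was at 0.836 ± 0.447 CPM with sgDDA1 and from 0.320 to 0.554 CPM with sgCon, with overlapping libraries (1.00, SE 0.34, adjusted p = 0.0138). IFNAR1 fell in both lines, by 0.32 in T98G and 0.41 in LN229. JAK2, a kinase of the interferon gamma receptor, fell by 0.75 in T98G (25.9 ± 0.800 CPM in sgDDA1, 43.7 ± 0.523 CPM in sgCon).

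Of 17 sensors and adaptors 15 were tested, of which 6 rose and 7 fell in T98G, against 20.4% and 20.6% of all genes. In LN229 6 rose, against 27.5% of all genes, and 3 fell, a share near the 20.5% of all genes. STING1, the adaptor of cytosolic DNA sensing, fell by 0.93 in T98G (18.3 ± 1.12 CPM in sgDDA1, 34.8 ± 2.53 CPM in sgCon) and rose by 1.64 in LN229 (3.48 ± 0.192 CPM in sgDDA1, 1.11 ± 0.0285 CPM in sgCon). The responses differed by -2.57 (SE 0.14, adjusted p = 3.29e-17). TLR3, a receptor for double-stranded RNA, showed the same contrast, at -0.66 in T98G and 0.71 in LN229, and those responses differed too (-1.37, adjusted p = 8.07e-09). ADAR, which edits double-stranded RNA, rose by 0.35 in T98G and fell by 0.20 in LN229, and SAMHD1, a dNTP hydrolase, rose by 0.55 in T98G and fell by 0.49 in LN229, with differences of 0.55 and 1.04 that also passed.

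A list of further interferon-stimulated genes held 33 symbols, with an older name of SHFL beside SHFL. Of these 32 were tested, of which 19 rose and 8 fell in T98G, and 11 rose and 6 fell in LN229. Against the 20.4% and 20.6% of all genes in T98G and the 27.5% and 20.5% in LN229, the rises in T98G stand furthest from the share of all genes. In T98G the rises included TNFSF10, the death ligand TRAIL (1.10), the helicase HELZ2 (1.00), SHFL, which blocks ribosomal frameshifting (0.91), and LY6E (0.88). The falls included GBP4 (-1.27; 204 ± 9.34 CPM in sgDDA1, 492 ± 10.4 CPM in sgCon), GBP5 (-1.19) and CD274, the gene of PD-L1 (-0.98). In LN229 UBE2L6, the ISG15 conjugating enzyme, rose most (2.23; 17.4 ± 1.59 CPM in sgDDA1, 3.78 ± 0.386 CPM in sgCon), followed by GBP5 (1.90), SHFL (1.56) and CD274 (1.35), of which GBP5 and CD274 stayed under 1 CPM. HELZ2 and SHFL rose in both lines, whereas GBP5 and CD274 fell in T98G and rose in LN229, and the test of the difference passed for both (-3.09 and -2.33).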

How the data were processed

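RNA sequencing of 18 libraries was used, 3 for each guide in U118-MG, T98G and LN229. Total RNA was taken with Trizol and made into Illumina libraries, per the labels' protocols. The submitters' processing notes name fastp 0.19.6, STAR 2.4.0, HTSeq 0.12.4, DESeq2 and the build GRCh38, with no roles or order. No source used here states strandedness, so reads of genes that overlap on opposite strands may not have been told apart. Whatever the strandedness, reads of close paralogues or of genes overlapping on the same strand may also have been assigned to the wrong gene. The deposited table holds raw counts per gene beside the authors' FPKM, which divide by gene length and library total. Every data column had a sample (0 without). Among counts of 1 to 19, 57.4% to 63.7% were even in each library, for which halved counts were tried.

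Genes were filtered with filterByExpr over the 6 groups and scaled by TMM over all 18 libraries. In edgeR 4.0.16 (R 4.3.3) a quasi-likelihood F-test gave log2 fold changes with standard errors (SE), taken as the fold change over the square root of F. Benjamini-Hochberg adjustment ran over the whole set of tested genes, and calls needed an adjusted p under 0.05. Both guide contrasts in T98G and LN229, their difference and T98G against LN229 came from the 12 libraries of these lines, the labelled U118-MG contrast from all 18, and U118-MG against the other lines from the 9 sgDDA1 libraries. These contrasts share libraries, so they are not independent. Alternatives were RLE scaling, no filter, halved counts, a replicate block, DESeq2 1.42.0, other sets of libraries and leaving out each library. The fit was tested on simulated data.

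The members and the gene lists were chosen with earlier results of these data known. Members named with values in every library were, per comparison, the 6 largest changes in each direction among those called, at 1 CPM or more in a group and without overlap. Added to these were members called in opposite directions in T98G and LN229, the 6 largest differences of response, the 6 highest FPKM per line and genes of the further lists that passed. A gene of those lists is not reported here. Some named by this rule have only a mean or fold in the text, and other members are named with their values to complete a family. Gene positions are from GENCODE 29. A count of 3, used as the floor, equals 0.0294 to 0.0809 TMM-scaled CPM and covers counting error only. Genes under the filter were not tested.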

Additional observations from a re-analysis of the deposited data

Results flagged for a closer look

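The response to the DDA1 guide differed between T98G and LN229 for 38 of the 48 tested interferon genes, against 37.1% of all genes, by the test of the difference itself in edgeR. In the fit over 18 libraries 12 were higher and 8 lower in T98G. The 6 largest differences follow. CXCL11, with a difference of -3.32 on the log2 scale, and CXCL10, with -1.95, fell in T98G and rose in LN229, and so did OASL, with -1.36. BST2, with -2.06, rose in both lines and more in LN229, where it was at 1.18 CPM in sgCon. IRF7, with 1.33, and OAS1, with 1.29, rose in T98G and were not called in LN229, where OAS1 was under 1 CPM. Groups of 3 libraries are too small for a test of single outlying libraries.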

How the results depend on the processing

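No called result changed direction under any alternative tried. Over the members called in each comparison, 3756 values under the alternatives stayed called and 84 did not. Members not called were followed only in the counts. Fitting all 18 libraries together moved the most, and the cause was not tested. It called 5402 genes in T98G (9984 otherwise) and 7185 in LN229 (11667), with 1 member lower in LN229 (6). For the difference of response it called 4227 genes (9027), with 12 members higher (23) and 8 lower (15). Leaving out 1 library at a time gave 34 to 35 members higher and 10 lower in T98G, 21 to 22 higher and 5 to 9 lower in LN229, and 20 to 24 higher and 13 to 17 lower for the difference of response. SP110, EPSTI1, PARP14, ISG20 and XAF1 each lost the call for that difference under at least 2 alternatives. Same-numbered replicates did not deviate together across genes (correlations -0.0183 to 0.0297), and the main fit used no pairing. Such correlations cannot show whether these samples shared a culture or preparation that moved few genes. With a replicate block 35 members were higher and 10 lower in T98G, 21 and 6 in LN229, and 22 and 14 for the difference of response. Depth limits the members under 1 CPM, 9 in LN229 sgDDA1 and 11 in LN229 sgCon, whose guide responses there had standard errors of up to 0.36 among those tested.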
